A study of Homo sapiens with 6 samples.

Results

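Collagens and the enzymes that modify them were followed in SKOV3, an established human ovarian carcinoma line, after a small interfering RNA (siRNA) against HJURP. The genes were taken by symbol: every collagen chain named COL, a number, A and a number; the lysyl oxidases LOX and LOXL1 to LOXL4; the lysyl hydroxylases PLOD1 to PLOD3; the prolyl 4-hydroxylase subunits P4HA1 to P4HA3 and P4HB; and the collagen chaperone SERPINH1. They came to 57 of the 58735 genes listed, 44 chains and 13 enzymes with the chaperone counted among the enzymes. The 2 groups were SKOV3 cells given siHJURP, the siRNA against the centromere histone chaperone HJURP, and SKOV3 cells given the negative control siRNA (NC). Each had 3 libraries of total RNA taken 24 h later. Both groups had thus received an siRNA, and a single line stands for ovarian carcinoma. The study's design mentions biological and also experimental triplicates without saying which kind the libraries are, so p-values measure only the spread between these libraries, which may be technical.

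Collagens are trimers of chains built from glycine-led repeats. In the endoplasmic reticulum prolyl 4-hydroxylase and the lysyl hydroxylases hydroxylate prolines and lysines of the nascent chains, SERPINH1 (HSP47) holds the folded helix, and outside the cell the lysyl oxidases join the molecules by oxidising lysines. Type IV collagens form the sheet of basement membranes under epithelia, whereas fibrillar collagens such as types I, III and V are the main products of fibroblasts.

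Levels are given in FPKM (fragment counts divided by the length of all annotated exons of the gene and by the size of the library). The libraries held 17116487 to 18027065 reads in genes. HJURP itself had 8.66, 8.64 and 8.65 FPKM in siHJURP, against 29.23, 29.02 and 29.99 FPKM in NC (log2 fold change -1.66, SE 0.034, limma adjusted p = 1.41e-06). Carcinoma markers were present: KRT8 averaged 132 FPKM in siHJURP and 182 FPKM in NC, and ERBB2 343 FPKM in siHJURP and 264 FPKM in NC, while EPCAM, CLDN3 and WT1 stayed under 1 FPKM in both groups. Interferon response genes set siHJURP replicate 2 apart from the other siHJURP libraries. The median of 29 of them, relative to the NC mean on the log2(FPKM + 1) scale, was 1.12, -0.06 and 1.45 in siHJURP replicates 1, 2 and 3.

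Of the 44 chains, 9 had a mean of at least 10 FPKM over the 6 libraries, 7 lay between 1 and 10, and 28 lay under 1 FPKM. Of the 13 enzymes, 7 reached 10 FPKM, 3 lay between 1 and 10 and 3 lay under 1. The 26 members at 1 FPKM or above were tested together with all other such genes on log2(FPKM + 1) by limma, with Benjamini-Hochberg adjustment over all 13365 genes. Among 16 tested chains 2 rose and 4 fell, and among 10 tested enzymes 1 rose and 3 fell. In all tested genes 37.9% passed, 17.6% as higher and 20.3% as lower. The members' share, 10 of 26 (38.5%), is near that background, so the count does not set them apart. Complete separation of the siHJURP and NC libraries was seen for 17 of the 26 members, 9 chains and 8 enzymes, against 52.2% of all tested genes. In bulk RNA a change in the number of cells that express a gene and a change in RNA per cell cannot be told apart. The median log2 fold change was -0.08 over the chains and -0.11 over the enzymes, against -0.01 over all tested genes. Which chains and enzymes moved, and which partner did not move with them, is described by role below.

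**Figure D1:**
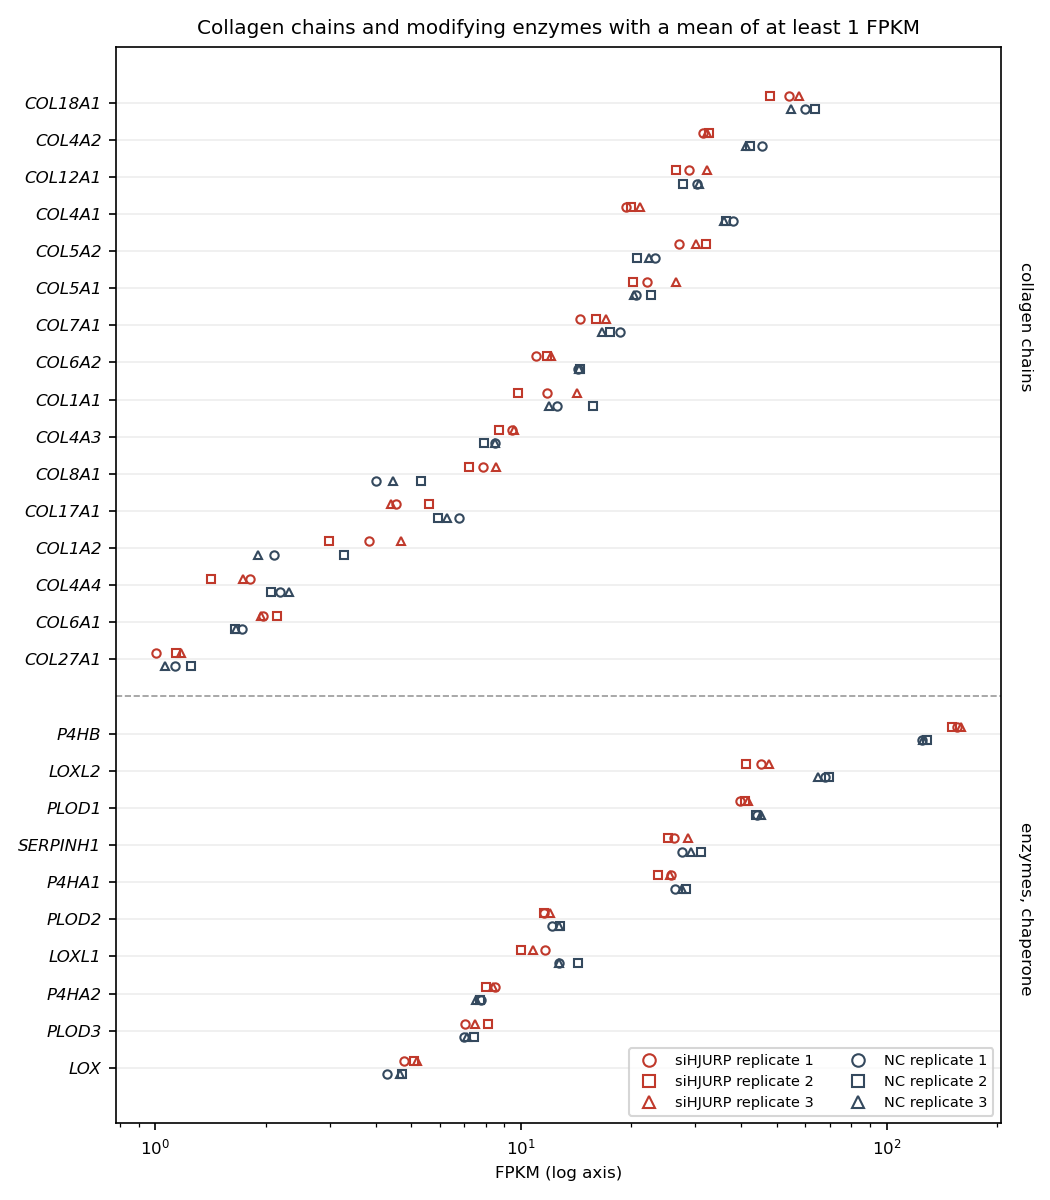
FPKM of the 26 tested members in each library on a log axis, collagen chains above the dashed line and enzymes with SERPINH1 below it; red symbols are siHJURP and dark symbols NC, and each symbol shape is a replicate. COL4A1 lies between 19.4 and 21.2 FPKM in siHJURP, below the 35.8 to 38.0 FPKM of NC, while COL18A1, COL12A1 and COL1A1 overlap between the groups.

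The type IV chains gave the largest fall among the tested members. COL4A1, the α1 chain of the ubiquitous basement membrane collagen, had 19.4, 19.9 and 21.2 FPKM in siHJURP, against 38.0, 36.3 and 35.8 FPKM in NC. Every siHJURP library lay below every NC library, and the mean was 45.1% lower (log2 -0.84, SE 0.045, limma adjusted p = 4.05e-05). COL4A2, its α2 partner in the same trimer, had 31.4, 32.7 and 32.3 FPKM in siHJURP, against 45.6, 42.3 and 41.4 FPKM in NC. Its groups did not overlap either, and its mean was 25.4% lower (log2 -0.41, SE 0.045, adjusted p = 0.000631). By mean FPKM, COL4A1 was the chain of rank 6 in siHJURP and of rank 3 in NC, whereas COL4A2 held rank 2 in both groups.

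Both genes fell, but not by the same proportion. The ratio of COL4A1 to COL4A2 within a library does not depend on the scaling between libraries. It was 0.615, 0.611 and 0.655 in siHJURP, against 0.834, 0.859 and 0.866 in NC. The ratio averaged 0.627 ± 0.024 in siHJURP and 0.853 ± 0.017 in NC (SD, n = 3 each). The groups did not overlap, and the exact permutation test, two-sided, gave p = 0.1, the smallest that 3 against 3 allows (0.11 adjusted over the 11 ratios computed).

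COL4A1 and COL4A2 lie head to head on chromosome 13 and are known to be transcribed in opposite directions from a common promoter. The windows below run from 250 bases before to 50 after each gene's start (RefSeq, GRCh38.p14), 5′ to 3′ on the strand of the gene, and are shown because they are largely the same DNA read from opposite strands. The COL4A1 window is chr13:110307108-110307407 on the minus strand and the COL4A2 window is chr13:110307034-110307333 on the plus strand. Capitals mark the 226 bases common to both.
COL4A1: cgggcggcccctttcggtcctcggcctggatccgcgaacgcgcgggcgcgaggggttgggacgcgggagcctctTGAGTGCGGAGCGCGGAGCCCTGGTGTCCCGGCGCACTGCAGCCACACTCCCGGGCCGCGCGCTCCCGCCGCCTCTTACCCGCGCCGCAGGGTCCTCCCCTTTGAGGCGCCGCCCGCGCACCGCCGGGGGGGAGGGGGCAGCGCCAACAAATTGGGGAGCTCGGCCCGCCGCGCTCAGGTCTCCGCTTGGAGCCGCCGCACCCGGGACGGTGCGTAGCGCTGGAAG
COL4A2: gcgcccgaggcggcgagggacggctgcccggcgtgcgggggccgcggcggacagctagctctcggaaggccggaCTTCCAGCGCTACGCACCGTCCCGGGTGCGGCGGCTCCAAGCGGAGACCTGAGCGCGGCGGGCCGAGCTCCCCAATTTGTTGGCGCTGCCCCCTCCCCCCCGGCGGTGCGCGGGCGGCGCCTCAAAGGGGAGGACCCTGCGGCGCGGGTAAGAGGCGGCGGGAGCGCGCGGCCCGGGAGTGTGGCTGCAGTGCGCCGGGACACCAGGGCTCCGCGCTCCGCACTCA
The 2 starts are 127 bases apart. The shared stretch is 76.5% G and C and holds 1 CCAAT, 1 CCCTCCCC and 1 GGGCGG match, searched on both strands. CCAAT occurred in 34.6% of all 35116 promoter windows of this length, CCCTCCCC in 13.6% and GGGCGG in 45.0%. CCCTCCCC and GGGCGG did not overlap each other there, and no TATAAA was found in either window, against 11.5% of all windows.

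COL4A3 and COL4A4, chains of the type IV network best known from the kidney glomerulus and the alveolus, form a second such pair, on chromosome 2, and their means lay on opposite sides of NC. COL4A3 had 9.43, 8.70 and 9.55 FPKM in siHJURP, against 8.49, 7.91 and 8.48 FPKM in NC. It did not pass the test (log2 0.14, 95% interval 0.02 to 0.26, limma adjusted p = 0.074), although the groups did not overlap. It passed as higher without siHJURP replicate 2 (0.0441) and under TPM (0.0399), quantile (0.040003) and total-read scaling (0.0278). COL4A4 had 1.82, 1.42 and 1.73 FPKM in siHJURP, against 2.19, 2.06 and 2.31 FPKM in NC, and lay just outside the threshold (log2 -0.27, 95% interval -0.47 to -0.06, adjusted p = 0.0503). With limma's voom on whole reads, which does not add a pseudocount of 1 FPKM, COL4A4 passed (log2 -0.41, adjusted p = 0.00346), as did COL4A3 (log2 0.15, adjusted p = 0.0382). COL4A4 passed in 5 alternative settings in all, including quantile scaling, no intensity trend and robust moderation, which kept the pseudocount.

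The ratio of COL4A3 to COL4A4 was 5.19, 6.12 and 5.52 in siHJURP, against 3.87, 3.83 and 3.67 in NC. All siHJURP libraries exceeded all NC libraries (exact permutation test, two-sided, p = 0.1, adjusted p = 0.11). Since COL4A3 lay higher and COL4A4 lower without overlap, this separation followed from the genes and is no further evidence. The same windows of this pair share fewer bases, since the starts are 419 bases apart. COL4A3 is at chr2:227164374-227164673 on the plus strand and COL4A4 at chr2:227164156-227164455 on the minus strand, and capitals mark the 82 bases common to both.
COL4A3: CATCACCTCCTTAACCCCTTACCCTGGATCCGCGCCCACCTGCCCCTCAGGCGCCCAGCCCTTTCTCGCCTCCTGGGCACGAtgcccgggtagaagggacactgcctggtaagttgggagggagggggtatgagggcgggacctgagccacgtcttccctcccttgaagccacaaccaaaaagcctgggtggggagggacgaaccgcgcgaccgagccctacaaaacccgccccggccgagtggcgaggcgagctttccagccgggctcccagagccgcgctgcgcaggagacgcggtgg
COL4A4: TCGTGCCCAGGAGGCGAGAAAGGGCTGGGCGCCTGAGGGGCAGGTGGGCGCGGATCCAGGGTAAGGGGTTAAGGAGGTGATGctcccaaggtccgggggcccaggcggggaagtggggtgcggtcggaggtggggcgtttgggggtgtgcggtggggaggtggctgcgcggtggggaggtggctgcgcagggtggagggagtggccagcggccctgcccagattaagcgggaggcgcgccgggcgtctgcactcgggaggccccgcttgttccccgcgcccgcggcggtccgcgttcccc
Neither window held CCAAT or TATAAA, and none of the motifs named above lay in the shared bases. COL4A5, the partner of both chains in the glomerular network, had 43 to 48 reads per library in siHJURP and 35 to 53 in NC. COL4A6 had at most 2 reads in a siHJURP library and at most 3 in an NC library. All type IV chains together made up 24.2% ± 0.97 of the summed chain FPKM in siHJURP and 31.4% ± 0.99 in NC (SD, n = 3 each), again without overlap (exact permutation test, p = 0.1, adjusted p = 0.11). Most of this share was COL4A1 and COL4A2, so it mainly restates their fall. The share of COL4A3 was 3.52% in siHJURP and 2.87% in NC.

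Of the other chains of epithelial basement membranes, 1 of 3 tested passed, against 37.9% of all tested genes. COL17A1, the transmembrane collagen of hemidesmosomes, fell to 4.56, 5.61 and 4.41 FPKM in siHJURP, against 6.77, 5.94 and 6.29 FPKM in NC (log2 -0.33, SE 0.087, limma adjusted p = 0.0237). The groups were separate but close, and the call was lost without siHJURP replicate 1 (0.0794) or 3 (0.0734) and without NC replicate 1 (0.0738) or 3 (0.0608). With siHJURP replicate 2 as the only siHJURP library the log2 fold change was -0.15 (adjusted p = 0.33), and siHJURP replicates 1 and 3, the lower ones, are those with high interferon genes, whose part in the result was not tested. COL18A1, the precursor of endostatin and the chain with the highest FPKM in both groups, had 54.2, 47.8 and 57.6 FPKM in siHJURP, against 59.8, 63.9 and 54.8 FPKM in NC. Those groups overlapped (log2 -0.16, 95% interval -0.35 to 0.03, adjusted p = 0.164). Of its exon bases 16.4% also belong to SLC19A1 on the opposite strand (6.27 FPKM in siHJURP, 6.46 FPKM in NC), and whether counting used strand is not given in the sources used here. COL7A1, the anchoring fibril collagen, had 14.49, 16.04 and 17.03 FPKM in siHJURP, against 18.6, 17.5 and 16.6 FPKM in NC, with overlap (adjusted p = 0.143).

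Of 5 tested fibrillar chains 1 rose and 0 fell, against 17.6% and 20.3% of all tested genes, so the count does not set them apart. COL5A2, a regulatory chain of type V collagen, which nucleates fibrils, had 27.0, 32.1 and 30.0 FPKM in siHJURP, against 23.2, 20.7 and 22.5 FPKM in NC. No value of one group reached the other, and the mean was 34.2% higher (log2 0.41, SE 0.071, limma adjusted p = 0.00426). Its partner COL5A1 had 22.2, 20.2 and 26.6 FPKM in siHJURP, against 20.6, 22.7 and 20.3 FPKM in NC, which overlapped (log2 0.10, 95% interval -0.12 to 0.33, adjusted p = 0.436). The sign for COL5A1 rested on siHJURP replicate 3, without which the log2 fold change was -0.0007.

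Type I collagen, the most abundant collagen of bone and skin, was represented by both its chains. COL1A1 had 11.8, 9.83 and 14.2 FPKM in siHJURP, against 12.5, 15.7 and 11.9 FPKM in NC, and the groups overlapped (log2 -0.16, 95% interval -0.49 to 0.18, limma adjusted p = 0.419). COL1A2 had 3.85, 2.99 and 4.70 FPKM in siHJURP, against 2.11, 3.28 and 1.90 FPKM in NC, with siHJURP replicate 2 below NC replicate 2 (log2 0.50, 95% interval 0.08 to 0.93, adjusted p = 0.0635). COL1A2 passed without siHJURP replicate 2 (0.0393) or NC replicate 2 (0.0192), under TPM (0.0446) and total-read scaling (0.0492), and by voom (log2 0.67, adjusted p = 0.00444).
Both chains were at their highest NC value in NC replicate 2 and at their lowest siHJURP value in siHJURP replicate 2. Their ratio varied less: COL1A1 over COL1A2 was 3.06, 3.29 and 3.02 in siHJURP, against 5.94, 4.80 and 6.27 in NC, with no overlap (exact permutation test, two-sided, p = 0.1, adjusted p = 0.11). COL27A1, a fibrillar chain of cartilage, averaged 1.11 ± 0.090 FPKM in siHJURP and 1.15 ± 0.096 FPKM in NC (adjusted p = 0.848).

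Among the remaining chains, COL8A1 had the highest positive fold change. COL8A1 forms the short-chain network of Descemet's membrane and is made by vascular cells. It had 7.87, 7.20 and 8.54 FPKM in siHJURP, against 4.02, 5.33 and 4.46 FPKM in NC, so every siHJURP library was above every NC library (70.8% higher, log2 0.67, SE 0.096, limma adjusted p = 0.00199). With siHJURP replicates 1 and 3 both left out the difference had the same sign and did not pass (log2 0.56, adjusted p = 0.0673).

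Of the type VI chains, which build beaded microfibrils, COL6A2 fell and COL6A1 did not pass. COL6A2 had 11.0, 11.8 and 12.1 FPKM in siHJURP, against 14.4, 14.5 and 14.4 FPKM in NC (19.5% lower, log2 -0.29, SE 0.045, limma adjusted p = 0.0025). COL6A1, its neighbour on chromosome 21 and obligate partner, had 1.97, 2.15 and 1.94 FPKM in siHJURP, against 1.73, 1.65 and 1.67 FPKM in NC, which did not pass (log2 0.17, 95% interval -0.0007 to 0.35, adjusted p = 0.106). It passed as higher in 1 alternative setting. COL6A1 over COL6A2 averaged 0.174 ± 0.012 in siHJURP and 0.116 ± 0.0036 in NC (SD, n = 3 each), with no overlap (exact permutation test, p = 0.1, adjusted p = 0.11). As COL6A1 lay higher and COL6A2 lower without overlap, this separation too followed from the genes and is no further evidence. COL6A3, the large chain that completes the trimer, had only 32 to 69 reads per library in siHJURP and 43 to 74 in NC. COL12A1, a fibril-associated collagen, had 28.8, 26.6 and 32.3 FPKM in siHJURP, against 30.2, 27.7 and 30.6 FPKM in NC, with overlap (log2 -0.01, 95% interval -0.19 to 0.16, adjusted p = 0.898).

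**Figure D2:**
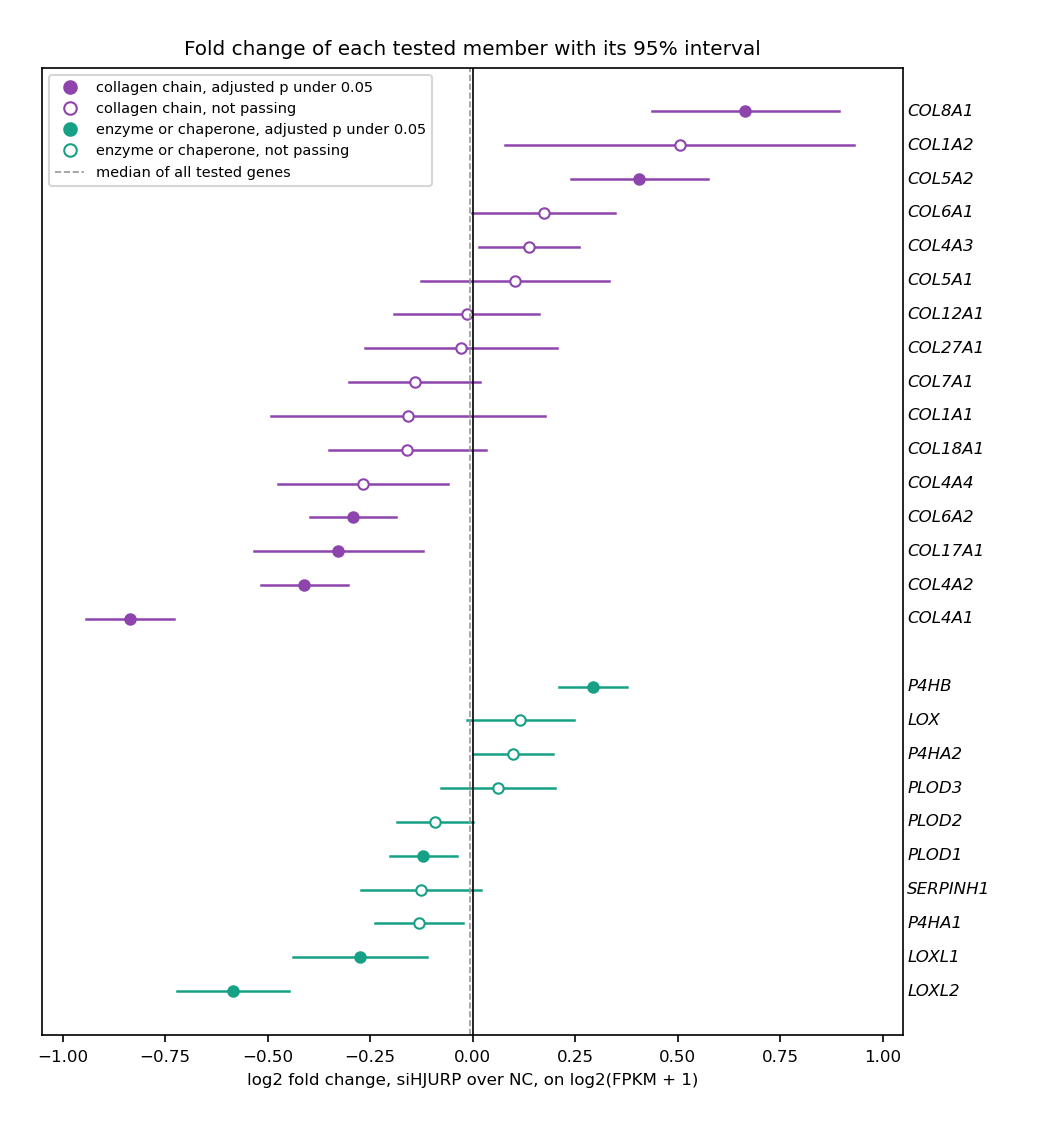
Log2 fold change of siHJURP over NC for the 26 tested members with its 95% interval, chains in the upper block and enzymes in the lower; filled points have a limma adjusted p under 0.05 and the dashed line is the median of all tested genes. COL4A1 at -0.84 and LOXL2 at -0.58 lie farthest to the left and COL8A1 at 0.67 farthest to the right.

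On the enzyme side, prolyl 4-hydroxylase is a tetramer of catalytic α subunits and of P4HB, which is also the general protein disulfide isomerase of the endoplasmic reticulum. P4HB, the highest member by FPKM, had 156, 151 and 159 FPKM in siHJURP, against 125, 129 and 126 FPKM in NC. It rose by 22.8% without overlap (log2 0.29, SE 0.035, limma adjusted p = 0.000888). The catalytic subunit P4HA1 had 25.7, 23.8 and 25.5 FPKM in siHJURP, against 26.5, 28.3 and 27.6 FPKM in NC, and did not pass (log2 -0.13, 95% interval -0.24 to -0.02, adjusted p = 0.0606). P4HA2 averaged 8.29 ± 0.24 FPKM in siHJURP and 7.67 ± 0.14 FPKM in NC (log2 0.10, adjusted p = 0.099), and passed as higher under TPM (0.0339), quantile (0.0468) and total-read scaling (0.0295). P4HB over the sum of P4HA1, P4HA2 and P4HA3 was 4.44, 4.62 and 4.56 in siHJURP, against 3.54, 3.49 and 3.49 in NC. P4HA1 made up 73.0% ± 0.26 of that α sum in siHJURP and 76.1% ± 1.1 in NC (SD, n = 3 each). Neither ratio overlapped between the groups (exact permutation tests, p = 0.1 each, adjusted p = 0.11). P4HB and P4HA2 lay higher and P4HA1 lower without overlap, so these separations largely followed from the genes themselves.

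The P4HB window is printed for the boxes that lie before its start, at chr17:81860486-81860785 on the minus strand (RefSeq, GRCh38.p14). Capitals mark CCAAT and TATAAA matches on either strand.
P4HB: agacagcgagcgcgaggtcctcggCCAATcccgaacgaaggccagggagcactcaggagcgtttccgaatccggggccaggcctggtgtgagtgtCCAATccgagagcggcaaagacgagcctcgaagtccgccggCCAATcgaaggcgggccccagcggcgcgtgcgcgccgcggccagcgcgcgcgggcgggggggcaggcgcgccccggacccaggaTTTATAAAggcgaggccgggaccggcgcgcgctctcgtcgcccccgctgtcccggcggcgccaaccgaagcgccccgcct
It held 3 CCAAT matches and 2 overlapping TATAAA matches on opposite strands, 28 and 30 bases before the start, and 1 GGGCGG. At least 1 CCAAT occurred in 34.6% of all windows, TATAAA in 11.5% and GGGCGG in 45%. The share of windows with 3 CCAAT matches was not counted. The endoplasmic reticulum stress element, searched by its consensus, was not in the window, and was in 0.0769% of all windows.

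All 3 lysyl hydroxylases were transcribed. PLOD1, which hydroxylates helical lysines, had 39.8, 41.1 and 41.8 FPKM in siHJURP, against 44.3, 44.0 and 45.3 FPKM in NC. This small fall of 8.13% passed (log2 -0.12, SE 0.034, limma adjusted p = 0.0319) in the deposited scaling. It was lost under TPM (0.243), quantile (0.255) and total-read scaling (0.164). It was also lost without siHJURP replicate 1 (0.12) or 2 (0.0623) and without NC replicate 1 (0.0717) or 3 (0.102). PLOD2, which hydroxylates telopeptide lysines, had 11.6, 11.6 and 12.0 FPKM in siHJURP, against 12.2, 12.7 and 12.7 FPKM in NC (log2 -0.09, 95% interval -0.18 to 0.001, adjusted p = 0.109). PLOD3, which also glycosylates hydroxylysine, averaged 7.55 ± 0.57 FPKM in siHJURP and 7.18 ± 0.23 FPKM in NC (adjusted p = 0.443). PLOD2 was 19.5% ± 0.39 of the PLOD sum in siHJURP and 19.5% ± 0.36 in NC, with overlap (exact permutation test, p = 0.8, adjusted p = 0.8).

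Among the 3 lysyl oxidases at 1 FPKM or above, the copper enzyme LOXL2, which crosslinks type IV collagen, showed the largest change. LOXL2 had 45.4, 41.3 and 47.6 FPKM in siHJURP, against 67.8, 69.7 and 65.0 FPKM in NC. Every siHJURP library was lower, by 33.7% in the mean (log2 -0.58, SE 0.058, limma adjusted p = 0.000424). LOXL1, known for its part in elastic fibres, had 11.7, 9.98 and 10.8 FPKM in siHJURP, against 12.7, 14.3 and 12.7 FPKM in NC (log2 -0.27, SE 0.069, adjusted p = 0.019). That call was lost without siHJURP replicate 2 (0.0503) or 3 (0.0541). Of the exon bases of LOXL1, 9.21% belong to LOXL1-AS1 on the opposite strand, which averaged 6.15 FPKM in siHJURP and 7.29 FPKM in NC. LOX, the founding member, averaged 5.03 ± 0.22 FPKM in siHJURP and 4.56 ± 0.23 FPKM in NC (log2 0.12, 95% interval -0.01 to 0.25, adjusted p = 0.139), and passed as higher under TPM (0.0459). LOXL2 remained the leading enzyme, at 73.4% ± 0.79 of the family's summed FPKM in siHJURP and 78.5% ± 0.75 in NC, without overlap (exact permutation test, p = 0.1, adjusted p = 0.11). As LOXL2 lay lower and LOX higher without overlap, this separation largely followed from the genes and is no further evidence.

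SERPINH1, the collagen chaperone, had 26.2, 25.3 and 28.7 FPKM in siHJURP, against 27.6, 31.1 and 29.1 FPKM in NC, and the groups overlapped (log2 -0.13, 95% interval -0.27 to 0.02, limma adjusted p = 0.155). Summed FPKM of all chains was 256, 251 and 280 in siHJURP, against 294, 294 and 278 in NC (exact permutation test, two-sided, p = 0.2). For all enzymes the sum was 338, 327 and 348 in siHJURP, against 337, 350 and 339 in NC (p = 0.5, exact permutation test). P4HB made up 46.0% of that sum in siHJURP and 37.0% in NC. The other 12 enzymes summed to 182, 175.5 and 189 FPKM in siHJURP, against 211.8, 221.6 and 213.3 FPKM in NC, lower in every siHJURP library. Most of this mean difference of -33.4 FPKM came from LOXL2, which averaged 44.8 FPKM in siHJURP and 67.5 FPKM in NC. P4HA2, PLOD3 and LOX had higher means in siHJURP. The enzyme sum over the chain sum was 1.32, 1.30 and 1.24 in siHJURP, against 1.15, 1.19 and 1.22 in NC, narrowly without overlap (exact permutation test, p = 0.1, adjusted p = 0.11). That direction rested on P4HB: without it the ratio was 0.712, 0.700 and 0.674 in siHJURP, against 0.721, 0.755 and 0.766 in NC, reversed and again without overlap. These values without P4HB were computed after the sums were seen. In both classes siHJURP replicate 2 often held the lowest siHJURP value, for 8 of 16 chains and 6 of 10 enzymes, where the share over all tested genes was 33.7%. The highest siHJURP value was often in siHJURP replicate 3, for 11 of 16 chains and 6 of 10 enzymes, against 4295 of all 13365 tested genes.

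**Figure D3:**
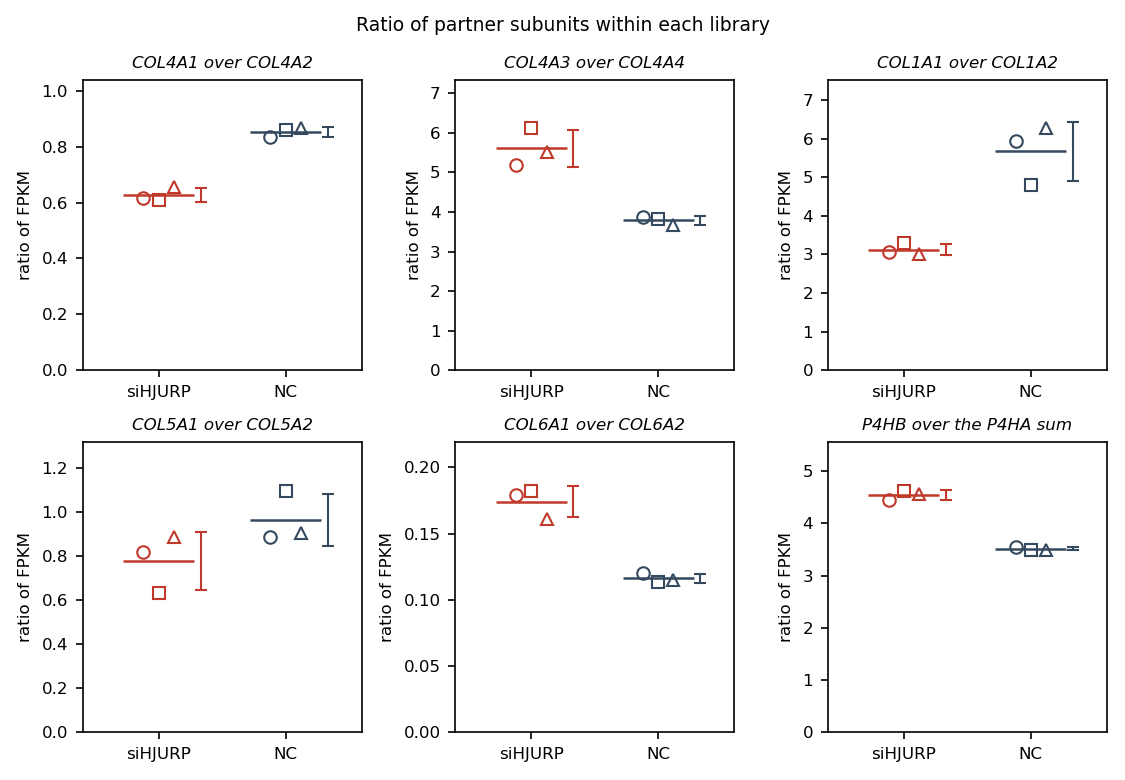
Ratio of FPKM of partner subunits within each library; symbols are replicates, horizontal lines are group means and bars are the SD of 3 libraries, with siHJURP left of NC. COL4A1 over COL4A2 is 0.611 to 0.655 in siHJURP and 0.834 to 0.866 in NC. The 6 ratios do not overlap between the groups, COL5A1 over COL5A2 only narrowly (0.631 to 0.885 in siHJURP, 0.888 to 1.097 in NC). The separations of COL4A3 over COL4A4, COL6A1 over COL6A2 and P4HB over the P4HA sum largely followed from the genes themselves.

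Members under 1 FPKM were not part of that test. Of these 31, 11 had a mean of at least 10 reads per library and were compared by voom on whole reads, fitted over all 16488 genes with such a mean. In that fit 38.2% of all genes and 17.7% of those under 1 FPKM passed. Among the 11 members 1 rose and 2 fell. COL3A1, the fibrillar chain of distensible tissues and granulation tissue, had 126, 113 and 99 reads in siHJURP, against 26, 38 and 41 reads in NC. This was the largest rise of any member fitted (log2 1.61, SE 0.22, voom adjusted p = 1.66e-05), yet only to 0.909 ± 0.11 FPKM in siHJURP, against 0.300 ± 0.069 FPKM in NC. COL13A1, a transmembrane collagen, had 7, 12 and 2 reads in siHJURP, against 35, 25 and 30 in NC (log2 -2.37, SE 0.46, adjusted p = 0.000638). It passed the read minimum through its NC libraries, and its log2 fold change was -1.73 without siHJURP replicate 3. COL16A1, a fibril-associated chain, had 106, 97 and 108 reads in siHJURP, against 153, 194 and 136 in NC (log2 -0.71, SE 0.15, adjusted p = 0.00124). Each of these 3 calls held with any single library left out.

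The other 8 did not pass. COL11A2, a fibrillar chain of cartilage, had 118, 107 and 167 reads in siHJURP, against 112, 76 and 79 in NC (log2 0.46, 95% interval 0.05 to 0.87, voom adjusted p = 0.074), and passed without siHJURP replicate 2 (0.0204) or NC replicate 1 (0.0316). COL23A1, a transmembrane collagen, had 50, 34 and 31 reads in siHJURP, against 14, 49 and 14 in NC, and passed without NC replicate 2 (log2 1.29, adjusted p = 0.0123). LOXL4 had 12, 17 and 29 reads in siHJURP, against 25, 37 and 23 in NC, and passed without siHJURP replicate 3 (log2 -1.03, adjusted p = 0.0479). COL11A1, COL6A3, COL4A5, P4HA3 and LOXL3 overlapped between groups in this fit (adjusted p = 0.296 to 0.961). The remaining 20 members, all chains, had means under 10 reads and no library above 14 reads, and COL6A5 and COL22A1 had 0 reads throughout. COL2A1, the cartilage collagen, had 2 reads in each siHJURP library and 2 to 4 in NC. COL25A1, a transmembrane collagen of neurons, had 6, 7 and 6 reads in siHJURP, against 1, 2 and 5 in NC, which did not overlap. None of these 20 was tested.

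**Figure D4:**
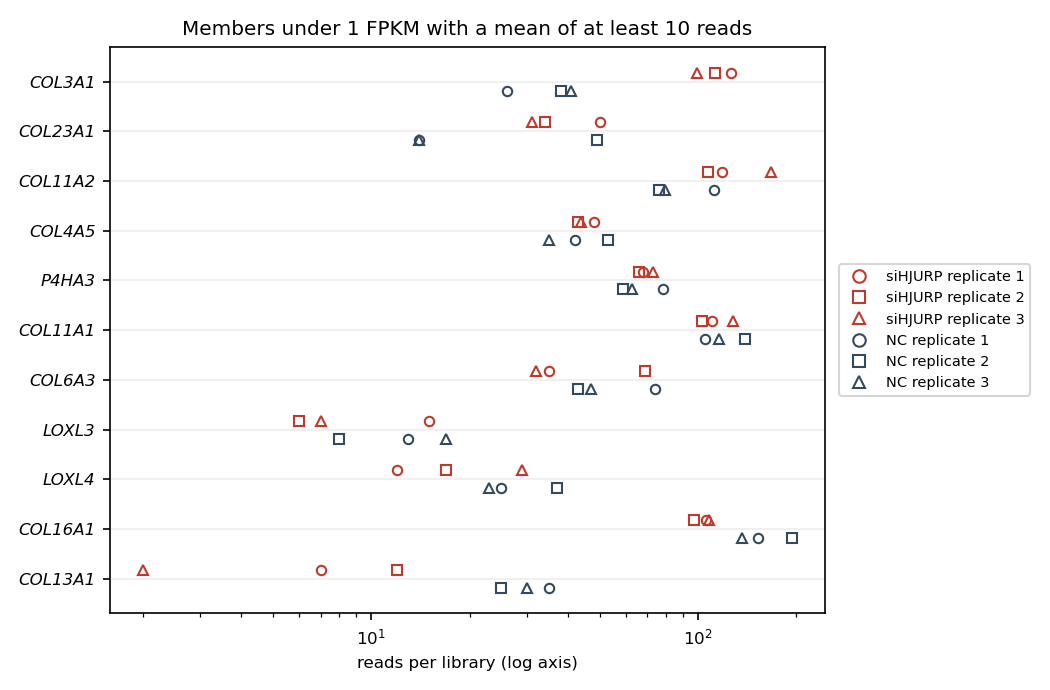
Reads per library, on a log axis, of the 11 members under 1 FPKM with a mean of at least 10 reads, ordered by fold change; red symbols are siHJURP and dark symbols NC, and each symbol shape is a replicate. COL3A1 lies at 99 to 126 reads in siHJURP, above the 26 to 41 of NC, and COL13A1 at 2 to 12 in siHJURP, below the 25 to 35 of NC.

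Chains such as COL1A1, COL1A2 and COL3A1 are also fibroblast markers, so the rest of that list was read beside them. Over all its 10 genes the summed FPKM was 14.5 to 20.7 in siHJURP and 14.8 to 20.1 in NC, most of it COL1A1. The 7 that are not collagens, PDGFRA, PDGFRB, THY1, FAP, DCN, LUM and ACTA2, summed to 0.803, 0.787 and 1.016 FPKM in siHJURP, against 0.518, 0.846 and 0.566 FPKM in NC, which overlapped. Each averaged at most 0.336 FPKM in either group. The mean was higher in siHJURP for 6 of the 7, without overlap for FAP (12, 9 and 11 reads in siHJURP, against 6, 7 and 3 in NC) and DCN (7, 5 and 10 reads in siHJURP, against 4, 1 and 4 in NC). Over all tested genes 52.2% did not overlap. No such share was computed for genes with so few reads, so these counts are descriptions. POSTN, a matrix protein of stromal cells on the list of fibril partners, was named after its values were seen. It had 56, 71 and 74 reads in siHJURP, against 22, 34 and 20 in NC (log2 1.32, voom adjusted p = 0.000541). POSTN lay under 1 FPKM, outside the 7 tested genes of that list, of which 2 rose and 3 fell. On the same list BGN (4.16 FPKM in siHJURP, 4.54 FPKM in NC) and ASPN (0.030 FPKM in siHJURP, 0.064 FPKM in NC) had lower means, with overlap. The part of stromal cells in the values of COL3A1 and COL1A2 was not tested. Endothelial markers summed to 0.660 to 0.899 FPKM over 6 genes in siHJURP and 1.55 to 1.81 FPKM in NC, mostly KDR, which fell to 0.644 ± 0.10 FPKM in siHJURP, against 1.36 ± 0.19 FPKM in NC (limma adjusted p = 0.0129). KDR reached the 1 FPKM minimum only through its NC libraries. PECAM1 had 2, 7 and 5 reads in siHJURP, against 15, 22 and 16 in NC (log2 -2.02, voom adjusted p = 0.00242), and reached the 10-read minimum likewise through NC. CLDN5 (0.064 FPKM in siHJURP, 0.136 FPKM in NC) and CDH5 (0.0091 FPKM in siHJURP, 0.0285 FPKM in NC) had lower means in siHJURP, with overlap. TEK (0.0533 FPKM in siHJURP, 0.0285 FPKM in NC) and VWF (0.0089 FPKM in siHJURP, 0.0037 FPKM in NC) had higher means in siHJURP, also with overlap. The part of endothelial markers in the fall of the type IV chains was not tested. Leukocyte markers summed to at most 0.283 FPKM in siHJURP and 0.398 FPKM in NC, with CD3E at 0 reads.

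Other genes that act on collagen were read from lists arranged by role, to be set against the 17.6% of all tested genes that rose and the 20.3% that fell; with 5 to 16 tested genes a list, the counts are descriptions. Of 7 tested genes of prolyl 3-hydroxylation and collagen glycosylation, 2 rose and 1 fell. COLGALT1, the galactosyltransferase that acts on the hydroxylysines made by the PLOD enzymes, fell to 27.7 ± 0.38 FPKM in siHJURP, against 51.8 ± 1.2 FPKM in NC (log2 -0.88, limma adjusted p = 1.71e-05). P3H2, a prolyl 3-hydroxylase, rose to 19.9 ± 0.76 FPKM in siHJURP, against 14.2 ± 0.34 FPKM in NC (log2 0.46), and P3H1 rose by 0.11. PPIB, the cyclophilin that isomerises collagen prolines, averaged 45.3 ± 1.2 FPKM in siHJURP and 45.3 ± 3.3 FPKM in NC (adjusted p = 0.985). CRTAP, its partner in the prolyl 3-hydroxylation complex, averaged 33 ± 1.1 FPKM in siHJURP and 33.8 ± 0.68 FPKM in NC (adjusted p = 0.529).

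Of 14 tested folding genes 6 rose and 2 fell, with a median log2 fold change of 0.09. ERO1A, the oxidase that recharges P4HB, rose to 22.6 ± 1.4 FPKM in siHJURP, against 11.3 ± 0.42 FPKM in NC (log2 0.94, limma adjusted p = 4.93e-05). CALR rose by 0.30 on the log2 scale, while DNAJB11 and HSPA5, chaperones of the unfolded protein response, fell by 0.45 and 0.23. Of the abundant genes that did not pass, HSP90B1 averaged 190 ± 3.9 FPKM in siHJURP and 191 ± 8.7 FPKM in NC (adjusted p = 0.894) and PDIA3 averaged 103 ± 3.1 FPKM in siHJURP and 102 ± 4.5 FPKM in NC (adjusted p = 0.876).
Of 14 tested export genes, which load procollagen into carriers, 4 rose and 2 fell: SEC31A, of the outer coat, fell by 0.69 and TFG by 0.34, whereas SEC13 rose by 0.35 and SEC23B by 0.27. SAR1A, the GTPase that starts the coat, averaged 25.8 ± 1.2 FPKM in siHJURP and 23.7 ± 1.1 FPKM in NC (adjusted p = 0.0926), and SEC16A averaged 23.2 ± 1.1 FPKM in siHJURP and 23.1 ± 1.8 FPKM in NC (adjusted p = 0.963). MIA3 (TANGO1), the cargo receptor for bulky collagens, and KLHL12, a ubiquitin ligase adaptor for large carriers, are named after their values were seen. KLHL12 rose by 0.32, and MIA3 averaged 8.70 ± 0.57 FPKM in siHJURP and 7.60 ± 0.22 FPKM in NC (log2 0.17, adjusted p = 0.0434).

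Of 5 tested genes of procollagen processing 0 rose and 2 fell, BMP1, the C-proteinase, by 0.34 and its relative TLL2 by 0.38. FURIN, a proprotein convertase, averaged 32.6 ± 0.87 FPKM in siHJURP and 32.6 ± 1.1 FPKM in NC (adjusted p = 0.999), and PCOLCE2 averaged 2.28 ± 0.27 FPKM in siHJURP and 2.61 ± 0.14 FPKM in NC (adjusted p = 0.211). Of 5 tested receptors 0 rose and 2 fell: ITGA2, the collagen-binding integrin subunit, fell to 1.74 ± 0.17 FPKM in siHJURP, against 4.94 ± 0.85 FPKM in NC (log2 -1.11, limma adjusted p = 0.000486), and DDR1 fell by 0.25. ITGB1, the partner of ITGA2, averaged 277 ± 19 FPKM in siHJURP and 285 ± 10 FPKM in NC (adjusted p = 0.553), and MRC2, a collagen uptake receptor, averaged 17.7 ± 0.44 FPKM in siHJURP and 17.3 ± 0.57 FPKM in NC (adjusted p = 0.586). Of 6 tested collagen-degrading proteases 1 rose and 3 fell. MMP1, interstitial collagenase, fell to 45.9 ± 3.4 FPKM in siHJURP, against 88.7 ± 4.4 FPKM in NC (log2 -0.94), the gelatinase MMP2 fell by 0.56 and the cathepsin CTSB by 0.71, while CTSL rose by 0.19. PEPD, which splits proline dipeptides, averaged 15.1 ± 0.62 FPKM in siHJURP and 14.7 ± 1.5 FPKM in NC (adjusted p = 0.71), and CTSK averaged 3.41 ± 0.27 FPKM in siHJURP and 3.76 ± 0.25 FPKM in NC (adjusted p = 0.244).

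Of 7 tested fibril partners 2 rose and 3 fell. THBS1 fell to 54.2 ± 9.3 FPKM in siHJURP, against 118 ± 5.8 FPKM in NC (log2 -1.12, limma adjusted p = 0.000563), SPARC, a collagen-binding protein of basement membranes, fell by 0.41 and FBLN1 by 0.29. FBN1, of microfibrils, rose by 0.37, and FN1, fibronectin, named after its values were seen, by 0.22. TGFBI averaged 12.4 ± 0.87 FPKM in siHJURP and 11.2 ± 0.76 FPKM in NC (adjusted p = 0.137) and BGN, a small proteoglycan, averaged 4.16 ± 0.57 FPKM in siHJURP and 4.54 ± 0.27 FPKM in NC (adjusted p = 0.367). Of 16 tested regulators and cofactors 2 rose and 7 fell. SMAD3, which carries TGF-beta signals to collagen genes, fell to 8.02 ± 0.067 FPKM in siHJURP, against 11.9 ± 0.13 FPKM in NC (log2 -0.52), and SP1, which binds GC boxes, fell by 0.40. CTGF, a TGF-beta target, fell by 0.44 and EGLN1, the oxygen-sensing hydroxylase of HIF1A, by 0.36. The 2 that rose, named after their values were seen, were the TGF-beta receptor TGFBR1, by 0.45, and CREB3L2, a transcription factor of the secretory pathway, by 0.36. The other TGF-beta receptor listed, TGFBR2, fell by 0.17 (42.4 FPKM in siHJURP, 47.9 FPKM in NC, limma adjusted p = 0.033). HIF1A, the hypoxia factor, averaged 173 ± 3.1 FPKM in siHJURP and 179 ± 6.6 FPKM in NC (adjusted p = 0.324), and TGFB1 averaged 16.5 ± 0.047 FPKM in siHJURP and 16.4 ± 1.4 FPKM in NC (adjusted p = 0.957).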

How the data were processed

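Transcript levels were measured in 6 libraries of SKOV3 cells, 3 per group, 24 h after siHJURP or NC siRNA. The authors' deposited values are FPKM, 1 table per library; HISAT2 2.0.5, featureCounts 1.5.0-p3 and hg38 are named in the submitters' processing notes. Strand setting and scaling are not given in the sources used here. FPKM times gene length gave whole multiples of 1 read in 100% of values (tolerance 0.01 reads), so whole reads were worked out; they numbered 17116487 to 18027065 per library. The library sizes behind the FPKM were 1.02 to 1.03 times these sums in siHJURP and 0.985 to 0.989 times in NC, so a scaling was already in the values.

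Genes with a mean of at least 1 FPKM were fitted as log2(FPKM + 1) with limma 3.58.1 (R 4.3.3, intensity trend, Benjamini-Hochberg adjusted p under 0.05); the pseudocount makes fold changes of low genes too small. Sums and ratios used exact permutation tests, two-sided (scipy 1.17.1). FPKM compare genes per base of all annotated exons (GENCODE 29), so a level ratio between chains also depends on annotated length. Of 26 tested members 12 share exon bases with another gene, 5 of them with a tested one. Promoter windows came from RefSeq (GRCh38.p14) and were found for 43 of 57 members.

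The members, lists and tests were chosen with earlier results of these data known. Named genes are HJURP, all tested members, members with at least 10 reads on average, and for each list up to 4 called genes by adjusted p with up to 2 of the highest FPKM that did not pass. The ratios of COL1A1 to COL1A2, COL4A3 to COL4A4, COL5A1 to COL5A2, COL6A1 to COL6A2 and P4HB to the P4HA sum, the share of type IV chains the sums without P4HB and the voom fit at 10 reads were added after seeing the data. Alternatives were 2 pseudocounts, 2 filters, TPM, median-ratio, quantile and total-read scaling, no trend, robust moderation, voom, a replicate block and left-out libraries.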

Additional observations from a re-analysis of the deposited data

How the results depend on the processing

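The calls of COL4A1, COL4A2, COL6A2, LOXL2, P4HB and COL5A2 kept their direction and passed in all 20 alternative settings. Those of COL8A1, COL17A1, LOXL1 and PLOD1 kept their direction and were lost in 23 of the 200 values of called members, as given beside them for single libraries. Without a filter COL17A1 (0.0804), LOXL1 (0.0622) and PLOD1 (0.0508) were lost; without a trend PLOD1 was lost (0.0661). With P4HA1 filtered at a mean FPKM of at least 5, where fewer genes are tested, it passed (0.0483).

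Higher chains numbered 4 under TPM, total-read scaling and voom, 1 without siHJURP replicates 1 and 3, and 5 of 24 with voom at 10 reads, where lower chains were 7. Lower chains numbered 5 under quantile scaling, without a trend, under robust moderation and by voom on the tested genes. Leaving out 1 library gave 2 to 4 higher chains (4 without siHJURP replicate 2) and 3 to 4 lower. Higher enzymes numbered 3 under TPM and 2 under quantile and total-read scaling; lower enzymes were 1 without a filter and 1 without siHJURP replicates 1 and 3, and 1 to 3 with 1 library left out (1 without siHJURP replicate 2), while higher enzymes stayed at 1. Over all genes 1649 to 2192 were higher and 2070 to 2532 lower with 1 library left out, and 716 and 1128 without siHJURP replicates 1 and 3, where a single siHJURP library is taken to vary like NC. Lower genes were 53.5% of calls in the deposited scaling, 40.5% under TPM, 41.5% under total reads and 46.8% under quantile scaling; the median shift of all genes stayed under 0.1.

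Differences near 0 changed sign. COL12A1 was 0.045 under TPM, 0.044 under quantile and 0.038 under total-read scaling, and -0.086 to 0.049 with 1 library left out (positive without siHJURP replicate 2, NC replicate 3 or NC replicate 1). COL27A1 was 0.0061 under TPM, 0.00097 under total reads, and -0.056 to 0.0075 with 1 library left out (0.0068 without NC replicate 2). COL5A1 ranged over -0.00070 to 0.19 with 1 library left out and was -0.063 with NC set against siHJURP replicate 2 alone. From reads, with 1 library left out, P4HA3 ranged over -0.12 to 0.090 (0.012 without siHJURP replicate 2) and COL4A5 over -0.15 to 0.13 (0.024 without siHJURP replicate 2). Without P4HB the enzyme sum differed by -33.4 and the enzyme to chain ratio by -0.052, the sign of the ratio being reversed. The enzyme sum differed by 36.9 TPM under TPM, where values are larger than in FPKM. The 12 enzymes without P4HB, for example, averaged 708.3 TPM and 182.1 FPKM in siHJURP. With 1 library left out the enzyme sum differed by -9.99 to 0.916 FPKM and the chain sum by -35.5 to -20.7 FPKM. The PLOD2 share then differed by -0.235 to 0.166 percentage points (0.121 without NC replicate 2). The cause was not tested.

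Same-numbered libraries did not deviate together (correlations 0.0025, -0.012 and 0.016). With a replicate block 2050 genes were higher and 2477 lower; among chains 2 were higher and 3 lower, among enzymes 1 and 2, with COL17A1 (0.0508) and PLOD1 (0.0572) lost. The 20 chains under 10 reads were not tested.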
